A study of Mus musculus x Mus spretus with 8 samples.

Results

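The genes described here are 37 members of the TGF-beta and BMP signalling pathways, chosen by symbol among the 49670 genes of the count table. Each symbol matched a single Ensembl gene. The BMP arm has 18 members, the TGF-beta arm has 18 members, and Smad4 belongs to both. The arms were read side by side across 8 RNA-seq libraries of a mouse cell line, using all reads of a gene and, as support, the reads assigned to each of its parental genomes.

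The cells are Patski, a fibroblast line from the embryonic kidney of a female hybrid mouse, with the strain given as C57BL/6 X SPRET/EiJ and the medium as DMEM with 10% FBS. The libraries form 4 groups of 2, labelled homozygous null for Stc1, for Pygo1 or for Rlim, and wild type (WT). The series describes each knockout pair as independent mutants, and nothing says that the WT libraries came from separate cultures, so the spread behind each p-value is that of these libraries alone and may be technical. All groups derive from the same cell line.

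TGF-beta and BMP ligands are secreted dimers that bind pairs of receptor kinases at the cell surface. The receptors phosphorylate receptor Smads, Smad2 and Smad3 for TGF-beta and Smad1, Smad5 and Smad9 for BMP, which enter the nucleus with Smad4. TGF-beta is stored in the matrix in a latent form held by latent TGF-beta binding proteins, and antagonists such as noggin and gremlin trap BMPs outside the cell. The inhibitory Smads, Smad6 and Smad7, and the Smurf ubiquitin ligases close the loop, and the Id genes are direct targets of BMP signalling in many cell types. RLIM, the product of Rlim and also called RNF12, has been described to promote the degradation of SMAD7 in zebrafish embryos and mouse embryonic stem cells. In the kidney, BMP7 maintains nephron progenitors and TGF-beta drives fibrosis.

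Library totals ran from 73128996 to 81500061 counts, of which 50.6 to 52.6% carried a genome. The targeted RNAs did not follow the labels: Stc1 was at 3.67 and 68.4 CPM (counts scaled to library size) in the Stc1-labelled libraries and 3.84 and 3.15 CPM in WT. With the Pygo1 label, Pygo1 was at 2.50 and 0.674 CPM, against 2.49 and 2.44 CPM in WT. With the Rlim label, Rlim was at 71.9 and 64.2 CPM, against 57.2 and 51.4 CPM in WT, and the groups are called by their labels. The Stc1-labelled libraries stood apart from each other, with a median difference of 0.35 on the log2 scale between them over 10445 genes, against 0.19 for the Pygo1-labelled, 0.06 for the Rlim-labelled and 0.10 for the WT pair. Of the 36 members tested, 8 differed by more than 2-fold between the Stc1-labelled libraries, 1 between the Pygo1-labelled libraries, and 0 within the Rlim-labelled and WT pairs.

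Fibroblast markers were mostly low: Vim summed with 8 others to 1020 to 1067 CPM in Stc1-labelled, 848 to 1295 CPM in Pygo1-labelled, 867 to 899.9 CPM in Rlim-labelled and 946.6 to 956 CPM in WT libraries. However, 6 of the 9 averaged under 1 CPM over all libraries, and Col1a2, Thy1 and Lum were at 0 in both WT libraries. Kidney tubule and epithelial markers summed to 3696 to 3723, 2441 to 2742 and 3128 to 3256 CPM in the Stc1-, Pygo1- and Rlim-labelled libraries. They summed to 3057 to 3197 CPM in WT, led by Cdh16, Pax2 and Pax8, with 2 of 8 under 1 CPM. The epithelial markers Epcam, Krt8, Krt18 and Krt19 were low, averaging 1.34, 1.02, 0.152 and 0.0405 CPM over all libraries. Within that list Cdh1, which encodes E-cadherin, was at 20.1 and 6.36 CPM in Stc1-labelled, 0.201 and 0.344 CPM in Pygo1-labelled, 0.498 and 0.514 CPM in Rlim-labelled and 9.52 and 8.91 CPM in WT libraries. The Pygo1- and Rlim-labelled libraries were below WT, with fitted log2 changes of -5.08 and -4.18, and Cdh1 was the 1 of 7 tested genes of the list that edgeR called lower in each. The part of this loss in the members' values was not tested. Endothelial markers were low, except that Cdh5 was at 100.3 CPM in Stc1-labelled replicate 2. Pecam1 was at 2.27 and 2.26 CPM in Rlim-labelled and 0.0260 and 0.163 CPM in WT libraries. With the Rlim label edgeR called 1 of the 2 tested endothelial markers higher. Of the 5 leukocyte markers, 3 averaged under 1 CPM. With the Pygo1 label edgeR called 1 of 3 tested leukocyte markers higher. Cd68 was at 7.61 and 6.52 CPM there and 1.81 and 2.39 CPM in WT. In bulk RNA, fewer cells of a type and less RNA per cell cannot be told apart.

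The differences from WT that passed the test were in 6 members, all of them higher in the labelled libraries. Counts were fitted with edgeR's quasi-likelihood test over 17839 genes, and a gene was called at a Benjamini-Hochberg adjusted p under 0.05. The fit shares its estimate of spread between all 4 groups, whose pairs differ in spread. No p-value therefore measures the spread of a label's own pair, and the number of calls does not rank the labels. Calls with the compared groups alone are given at the end. In the Stc1-labelled libraries 4 of 36 tested members rose (Smad9, Id2, Ltbp2 and Serpine2), where 0.577% of all genes were called (0.286% higher and 0.291% lower). In the Pygo1-labelled libraries 4 rose (Smad9, Id1, Ltbp2 and Serpine2), where 2.35% of all genes were called (1.54% higher and 0.807% lower). In the Rlim-labelled libraries 5 rose (Smad9, Id1, Id2, Ltbp2 and Ltbp4), where 1.4% of all genes were called (0.785% higher and 0.617% lower). Smad9 and Ltbp2 rose in all 3 labels, 3 members rose in 2 labels and 1 in 1 label, and 30 tested members were called in no label. The 3 comparisons share the WT libraries and are not independent of each other. The members were chosen with earlier results of these data known, so the shares over all genes are no test of the list.

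The number of calls depended on single libraries. Without WT replicate 1, and likewise without WT replicate 2, 0 members were called in the Stc1-labelled, 1 in the Pygo1-labelled and 0 in the Rlim-labelled libraries. Without Rlim-labelled replicate 1, and likewise without replicate 2, 1 member was called in each. Without Stc1-labelled replicate 1 the counts were 20, 15 and 16 for Stc1, Pygo1 and Rlim, and without Stc1-labelled replicate 2 they were 7, 15 and 16. The calls over all genes moved too: without Stc1-labelled replicate 1 they made up 24%, 19.7% and 16.3% of the genes tested, and without Stc1-labelled replicate 2 they made up 6.51%, 19.8% and 16.3%. Without a WT replicate they made up at most 0.0213%, 0.0533% and 0.016%, and without an Rlim-labelled replicate at most 0.0749%, 0.241% and 0.048%. Ltbp2 alone kept its call in all 15 alternatives for Pygo1, and it did so in 13 for Rlim and 12 for Stc1.

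**Figure D1:**
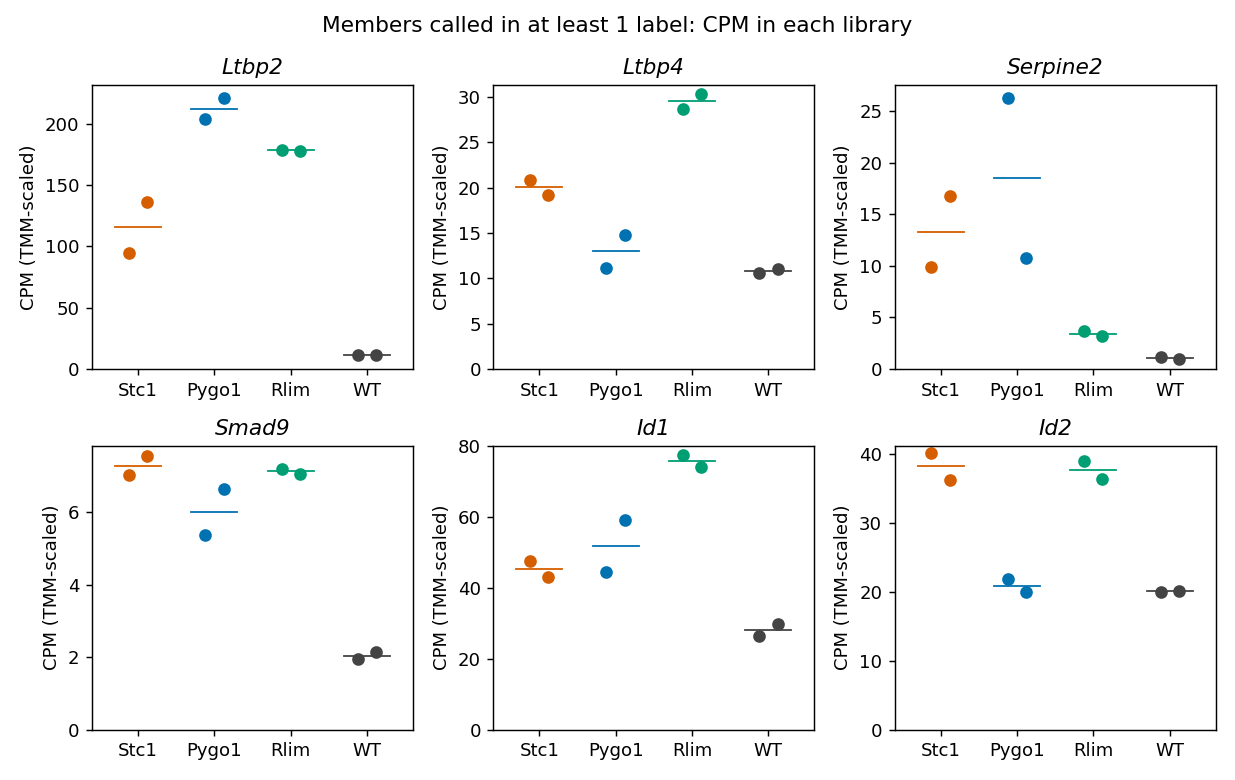
CPM scaled by library factors (y axis) for the 6 members called against WT, in each library of the Stc1-, Pygo1- and Rlim-labelled and WT groups (x axis); points are libraries and bars are means of 2. Ltbp2 is at 94.7 to 221 CPM in the 6 labelled libraries and 11.1 to 11.3 CPM in WT, while Id2 in the Pygo1-labelled libraries lies at the WT level.

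Both arms held called genes. In the BMP arm 2, 2 and 3 of 17 tested members rose in the Stc1-, Pygo1- and Rlim-labelled libraries, and in the TGF-beta arm 2, 2 and 2 of 18. The median log2 change of the BMP arm was 0.42 for Stc1, 0.12 for Pygo1 and 0.46 for Rlim, and that of the TGF-beta arm was 0.46, 0.20 and 0.01, beside 0.01, -0.00 and 0.01 over all genes tested. Both libraries lay above both WT libraries for 17 of 36 members with the Stc1 label (47.2%, against 22.2% of all genes), 19 with the Pygo1 label (52.8% against 29.6%) and 20 with the Rlim label (55.6% against 35.7%). Both lay below WT for 6, 9 and 7 members (16.7%, 25.0% and 19.4%, against 22.2%, 31% and 35.6% of all genes). Because of how the members were chosen, these shares do not test the list either.

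**Figure D2:**
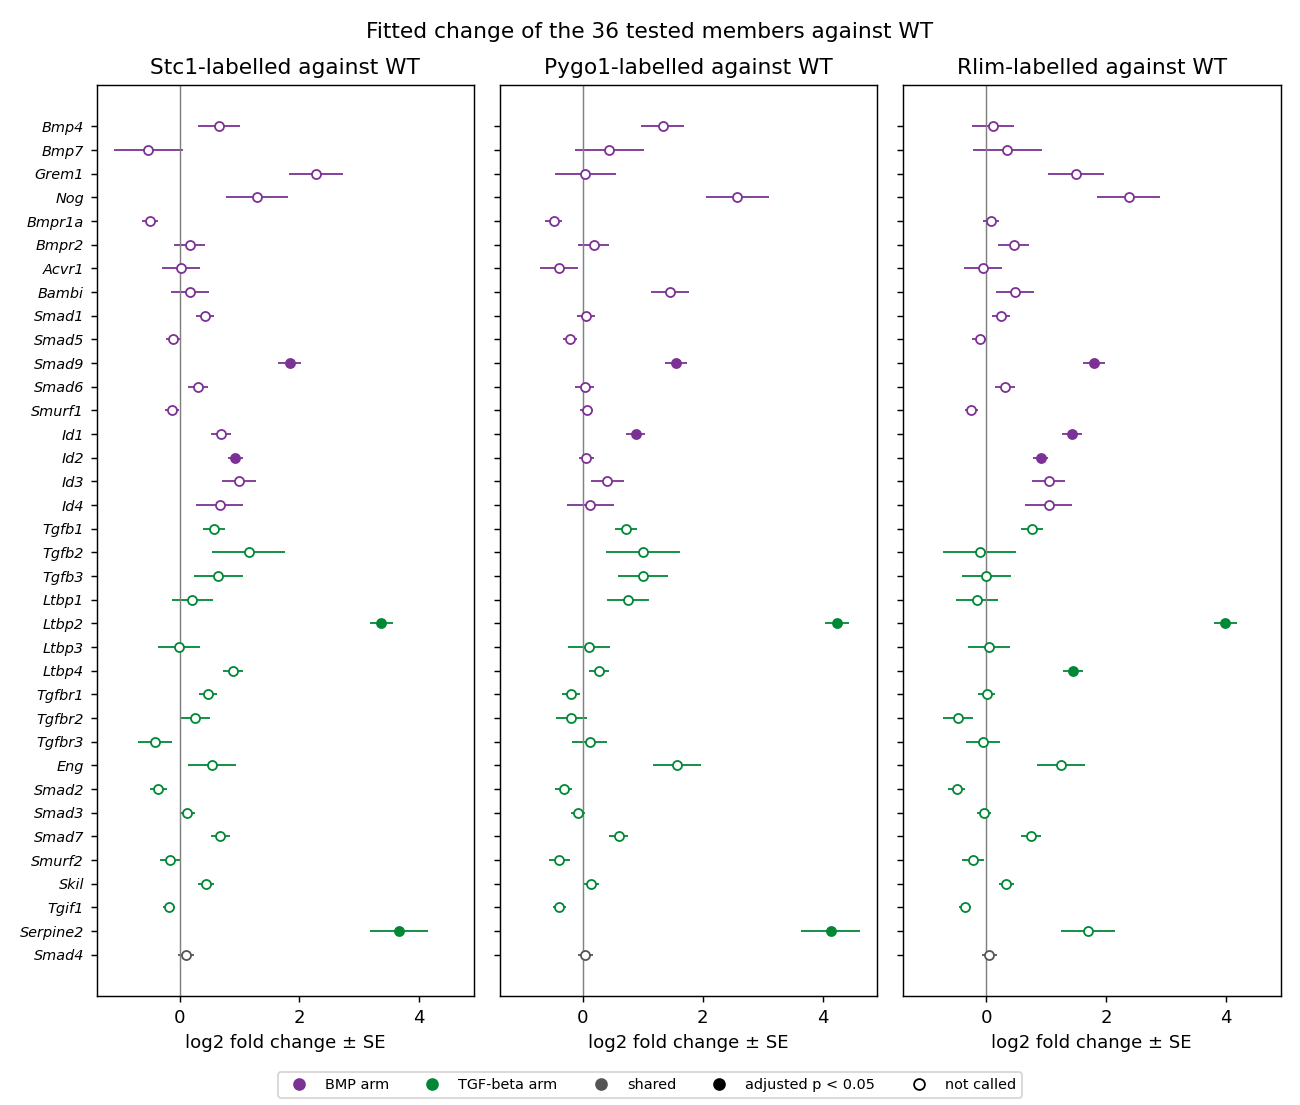
Fitted log2 fold change against WT with its standard error (x axis) for the 36 tested members (rows). The standard error rests on the spread shared by all groups. The BMP arm is in purple, the TGF-beta arm in green and filled points were called at an adjusted p under 0.05. Ltbp2 lies farthest right in the Pygo1 and Rlim panels and Serpine2 in the Stc1 panel, the open points of Nog (2.58 for Pygo1 and 2.38 for Rlim) and Grem1 (2.28 for Stc1) lie right of Smad9 (1.56 to 1.84), and no filled point lies left of 0.

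Among the ligands no member was called. Bmp7 was the most abundant per length in every library except Stc1-labelled replicate 2, where Tgfb1, Tgfb2 and Tgfb3 were higher. It was at 82.2 and 20.1 TPM (a level scaled to transcript length and library size) in Stc1-labelled, 86.1 and 118 TPM in Pygo1-labelled, 96.9 and 101 TPM in Rlim-labelled and 71.7 and 70.2 TPM in WT libraries. The Stc1-labelled libraries thus fell on either side of WT. Tgfb1 was at 46.8 and 51.1 CPM in Stc1-labelled, 44.1 and 64.8 CPM in Pygo1-labelled, 56.1 and 55.9 CPM in Rlim-labelled and 32.6 and 33.4 CPM in WT libraries. All 6 labelled libraries lay above WT, with log2 changes of 0.57 ± 0.18, 0.72 ± 0.18 and 0.76 ± 0.18 (SE) and edgeR adjusted p = 0.213, 0.0945 and 0.0964. Tgfb2 differed widely between libraries of the Stc1 label: it was at 13.0 and 55.6 CPM in the Stc1-labelled, 21.8 and 40.3 CPM in the Pygo1-labelled, 14.8 and 13.9 CPM in the Rlim-labelled and 17.3 and 13.6 CPM in the WT libraries. Bmp4 was at 4.14 to 13.6 CPM in the labelled libraries and 4.22 and 4.23 CPM in WT. Bmp2 did not pass the filter on low counts, with 4 and 2 counts in the Rlim-labelled libraries and 0 in the other 6, where 3 counts correspond to 0.0376 to 0.0416 CPM.

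The secreted BMP antagonists were scarce. Nog, which encodes noggin, was at 0.859 and 2.86 CPM in Stc1-labelled, 5.01 and 4.06 CPM in Pygo1-labelled, 4.19 and 3.74 CPM in Rlim-labelled and 0.690 and 0.827 CPM in WT libraries. Every labelled library was above WT, and the log2 changes of 1.29 ± 0.52, 2.58 ± 0.53 and 2.38 ± 0.53 (SE) had edgeR adjusted p = 0.285, 0.0612 and 0.0851. Grem1, which encodes gremlin, was at 0.319 and 0.373 CPM in Stc1-labelled, 0.0755 and 0.0688 CPM in Pygo1-labelled, 0.223 and 0.180 CPM in Rlim-labelled and 0.0521 and 0.0877 CPM in WT libraries. The Stc1- and Rlim-labelled libraries lay above WT, where 4 and 7 reads were counted. The log2 changes were 2.28 ± 0.45, 0.04 ± 0.51 and 1.5004 ± 0.46 (SE) for Stc1, Pygo1 and Rlim, with edgeR adjusted p = 0.0949, 0.978 and 0.162.

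Among the latent binding proteins, Ltbp2 rose in all 3 labels. This gene, whose product is a matrix protein of elastic fibres that, unlike its relatives, does not bind latent TGF-beta, was at 94.7 and 136 CPM in Stc1-labelled, 203 and 221 CPM in Pygo1-labelled, 179 and 177 CPM in Rlim-labelled and 11.3 and 11.1 CPM in WT libraries. Every labelled library was above both WT libraries, with the Pygo1-labelled pair highest and the Stc1-labelled pair lowest of the labels. The gene rose 10.3-fold, 19.0-fold and 15.9-fold for Stc1, Pygo1 and Rlim, with log2 changes of 3.37 ± 0.19, 4.25 ± 0.20 and 3.99 ± 0.20 (SE) and edgeR adjusted p = 0.00223, 0.000499 and 0.000843. Over the alternatives the adjusted p reached at most 0.115, 0.0339 and 0.0663, the log2 changes spanning 3.08 to 3.598, 4.15 to 4.30 and 3.89 to 4.01. Ltbp2 lies on chromosome 12 at 84783212 to 84876532, minus strand, in GENCODE M21 on GRCm38, and 764 of its exonic bases overlap the antisense gene D030025P21Rik, whose reads cannot be told apart without the strand setting.

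Ltbp4, whose product binds latent TGF-beta1, was at 20.9 and 19.2 CPM in Stc1-labelled, 11.2 and 14.8 CPM in Pygo1-labelled, 28.7 and 30.3 CPM in Rlim-labelled and 10.5 and 11.1 CPM in WT libraries. The Rlim-labelled pair was highest, and the lower Pygo1-labelled library lay just above WT. Ltbp4 rose 2.73-fold in the Rlim-labelled libraries (log2 change 1.45 ± 0.17 SE, edgeR adjusted p = 0.0206, at most 0.297 over the alternatives) and was not called for Stc1 (0.89 ± 0.17, edgeR adjusted p = 0.0798) or Pygo1 (0.26 ± 0.16, edgeR adjusted p = 0.410). Ltbp3, which also holds latent TGF-beta, was the most abundant member per length, at 781 and 364 TPM in Stc1-labelled, 585 and 684 TPM in Pygo1-labelled, 614 and 641 TPM in Rlim-labelled and 544 and 565 TPM in WT libraries, and was not called. Ltbp1 was not called either, at 105 and 225 CPM in Stc1-labelled, 289 and 193 CPM in Pygo1-labelled, 133 and 123 CPM in Rlim-labelled and 143 and 141 CPM in WT libraries.

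No receptor was called in either arm. In the BMP arm Bmpr1a, a type I receptor, was at 22.3 and 22.4 CPM in Stc1-labelled, 24.6 and 20.3 CPM in Pygo1-labelled, 34.5 and 32.1 CPM in Rlim-labelled and 32.9 and 30.0 CPM in WT libraries. The Stc1- and Pygo1-labelled libraries lay below WT, with log2 changes of -0.49 ± 0.14 in each (SE, edgeR adjusted p = 0.175 and 0.114). Bmpr1a lies on chromosome 14, where the median log2 change against WT was -0.25 for Stc1 and -0.29 for Pygo1. The part of the chromosome in the Bmpr1a values was not tested. Per length, Acvr1 was the most abundant BMP receptor in WT, at 15.8 and 15.6 TPM. The type II receptor Bmpr2 and the type I receptor Acvr1 had fitted changes of -0.40 to 0.46, and the decoy receptor Bambi was at 0.852 to 3.22 CPM in the labelled and 0.977 and 1.03 CPM in the WT libraries. In the TGF-beta arm the type II receptor Tgfbr2 was the most abundant, at 60.7 and 120.2 TPM in Stc1-labelled, 69.4 and 61.5 TPM in Pygo1-labelled, 56.7 and 54.2 TPM in Rlim-labelled and 70.9 and 69.6 TPM in WT libraries. Tgfbr1, the type I receptor, and the co-receptors Tgfbr3 and Eng were likewise not called, Eng staying at or under 2.67 CPM.

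**Figure D3:**
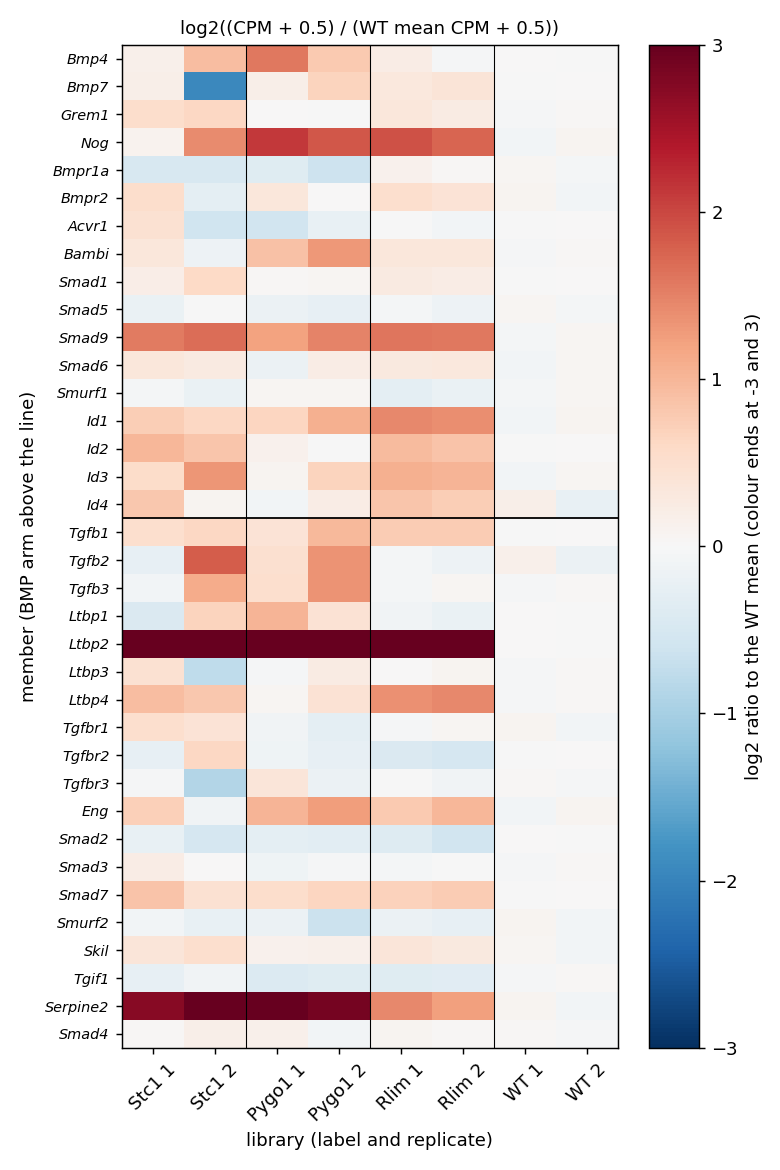
Log2 of each library's CPM plus 0.5 over the WT mean CPM plus 0.5 (colour, ending at -3 and 3) for the 36 tested members (rows, with the BMP arm above the line) in the 8 libraries (columns). Ltbp2 and Serpine2 are red in every labelled library, and Bmp7, Tgfb2 and Tgfbr3 differ in colour between the Stc1-labelled libraries.

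Of the Smads, Smad9 rose in all 3 labels and the others were called in none. Smad9, the least abundant BMP receptor Smad, was at 7.02 and 7.56 CPM in Stc1-labelled, 5.37 and 6.65 CPM in Pygo1-labelled, 7.20 and 7.07 CPM in Rlim-labelled and 1.94 and 2.14 CPM in WT libraries. The labelled libraries did not overlap with WT. It rose 3.57-fold, 2.94-fold and 3.49-fold for Stc1, Pygo1 and Rlim, with log2 changes of 1.84 ± 0.19, 1.56 ± 0.19 and 1.80 ± 0.19 (SE) and edgeR adjusted p = 0.0161, 0.0161 and 0.0182, which reached 0.315, 0.238 and 0.287 over the alternatives. Per length Smad9 was at 3.02 to 4.35 TPM in the labelled and 1.02 to 1.10 TPM in the WT libraries, still below Smad1 and Smad5, which ran from 11.98 to 20.3 TPM over all 8 libraries. Smad3, the most abundant Smad, was at 149 to 180 TPM in the labelled and 149 to 151 TPM in the WT libraries, and Smad2 at 8.34 to 10.1 TPM against 11.3 to 11.7 TPM in WT. Smad2 had log2 changes of -0.36 ± 0.14, -0.32 ± 0.14 and -0.49 ± 0.14 (SE) with edgeR adjusted p = 0.281, 0.261 and 0.142. Smad4 was at 39.8 to 48.0 CPM in the labelled and 41.6 to 43.1 CPM in the WT libraries.

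The inhibitory Smads and ubiquitin ligases were not called. Smad7 was at 25.2 and 18.9 CPM in Stc1-labelled, 19.999 and 21.6 CPM in Pygo1-labelled, 22.7 and 23.7 CPM in Rlim-labelled and 13.6 and 14.0 CPM in WT libraries. All labelled libraries were above WT, with log2 changes of 0.68 ± 0.16, 0.60 ± 0.16 and 0.75 ± 0.16 (SE) and edgeR adjusted p = 0.139, 0.110 and 0.0834. Smad6 had log2 changes of 0.03 to 0.31. Smurf1, at 92.5 to 117 TPM in the labelled and 101 to 106 TPM in the WT libraries, was far more abundant per length than Smurf2, at 7.25 to 10.6 TPM and 10.2 to 11.7 TPM. The nuclear corepressors Skil and Tgif1, which hold back Smad-driven transcription, had log2 changes of 0.14 to 0.44 and -0.39 to -0.18.

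The Id genes encode helix-loop-helix proteins that block differentiation factors, and Id1 and Id2 were each called in some of the labels. Id1 was at 47.6 and 43.2 CPM in Stc1-labelled, 44.4 and 59.2 CPM in Pygo1-labelled, 77.6 and 74.1 CPM in Rlim-labelled and 26.5 and 29.8 CPM in WT libraries. All labelled libraries were above WT, the Rlim-labelled pair highest. Id1 rose 2.70-fold for Rlim (log2 change 1.43 ± 0.16 SE, edgeR adjusted p = 0.0200, at most 0.287 over the alternatives) and 1.84-fold for Pygo1 (0.88 ± 0.16, edgeR adjusted p = 0.0464, at most 0.375), and was not called for Stc1 (0.69 ± 0.16, edgeR adjusted p = 0.128).

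Id2 was at 40.2 and 36.2 CPM in Stc1-labelled, 21.8 and 19.997 CPM in Pygo1-labelled, 39.0 and 36.4 CPM in Rlim-labelled and 19.99 and 20.1 CPM in WT libraries. The Pygo1-labelled libraries lay at the WT level and the other labels well above it. Id2 rose 1.91-fold for Stc1 (log2 change 0.93 ± 0.12 SE, edgeR adjusted p = 0.0341, at most 0.451 over the alternatives) and 1.88-fold for Rlim (0.91 ± 0.12, edgeR adjusted p = 0.0278, at most 0.355), with 0.06 ± 0.12 for Pygo1 (edgeR adjusted p = 0.814). Id3, the most abundant of the 4 per length in WT, was at 86.1 and 146 CPM in Stc1-labelled, 62.1 and 93.0 CPM in Pygo1-labelled, 122.6 and 118 CPM in Rlim-labelled and 55.5 and 61.3 CPM in WT libraries. Every labelled library was above WT, but Id3 was not called, with edgeR adjusted p = 0.180, 0.449 and 0.123. Id4 was at 0.944 to 2.20 CPM in the labelled libraries and 0.814 to 1.24 CPM in WT.

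Serpine2 encodes protease nexin 1, a secreted inhibitor of thrombin and plasminogen activators. It was at 9.89 and 16.7 CPM in Stc1-labelled, 26.3 and 10.8 CPM in Pygo1-labelled, 3.70 and 3.17 CPM in Rlim-labelled and 1.15 and 0.965 CPM in WT libraries. Every labelled library was above WT, with the Rlim-labelled pair nearest to it. It rose 12.6-fold for Stc1 (log2 change 3.66 ± 0.48 SE, edgeR adjusted p = 0.0346, at most 0.486 over the alternatives) and 17.6-fold for Pygo1 (4.13 ± 0.49, edgeR adjusted p = 0.0161, at most 0.246), and was not called for Rlim (1.70 ± 0.46, edgeR adjusted p = 0.124).

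The labels were then compared with each other. Between Stc1- and Rlim-labelled libraries edgeR called 0 members, where 0.381% of all genes were called (0.112% higher and 0.269% lower with the Stc1 label); 7 had an unadjusted p under 0.05 and DESeq2 called 4. Between Pygo1- and Rlim-labelled libraries, where 1.02% of all genes were called (0.583% higher and 0.437% lower with the Pygo1 label), Id2 and Ltbp4 were lower with the Pygo1 label, by log2 changes of -0.85 ± 0.12 and -1.19 ± 0.17 (SE, edgeR adjusted p = 0.0357 and 0.0348, at most 0.469 and 0.420 over the alternatives). Between Stc1- and Pygo1-labelled libraries, where 1.74% of all genes were called (0.51% higher and 1.23% lower with the Stc1 label), Id2 was higher with the Stc1 label, by a log2 change of 0.87 ± 0.12 (SE, edgeR adjusted p = 0.0252, at most 0.457 over the alternatives). Without either WT replicate, or without either Rlim-labelled replicate, 0 members were called in each of these 3 comparisons. Without Stc1-labelled replicate 1 edgeR called 16, 10 and 12 members in Stc1 against Rlim, Pygo1 against Rlim and Stc1 against Pygo1, and without Stc1-labelled replicate 2 it called 2, 10 and 7. Without Pygo1-labelled replicate 1 it called 0 in each, and without Pygo1-labelled replicate 2 it called 0, 2 and 0.

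Few other genes of the pathways were called. Of 20 tested further BMP genes, edgeR called 0 for Stc1, 1 for Pygo1 and 0 for Rlim, and 4, 5 and 2 had an unadjusted p under 0.05. The called gene was Gdf6, a BMP-family ligand, at 1.17 and 2.88 CPM in Pygo1-labelled and 0.0781 and 0.200 CPM in WT libraries. Of 19 further TGF-beta and activin genes, edgeR called 0 in each label, with 4, 4 and 6 at an unadjusted p under 0.05. Of 20 textbook TGF-beta target genes, edgeR called 0 for Stc1, 1 rose for Pygo1 and 2 fell for Rlim, and 9, 8 and 8 had an unadjusted p under 0.05. Over all genes tested, 16%, 20.6% and 17.9% had an unadjusted p under 0.05, beside the 0.577%, 2.35% and 1.4% called. Fn1, which encodes fibronectin, was at 3808 and 4562 CPM in Pygo1-labelled and 2230 and 2343 CPM in WT libraries (log2 change 0.87 ± 0.15 SE, edgeR adjusted p = 0.0413), and its exons overlap the antisense-annotated Apol7d. With the Stc1 label Fn1 was also above WT, at 3966 and 4536 CPM, but not called. With the Rlim label it was below WT, at 1545 and 1593 CPM. The Stc1 and Pygo1 labels were above the Rlim label, by log2 changes of 1.44 ± 0.15 and 1.42 ± 0.15 (SE, edgeR adjusted p = 0.0271 and 0.0175). Postn, which encodes periostin, fell by 2.25 ± 0.37 on the log2 scale, at 1.51 and 1.57 CPM in Rlim-labelled and 7.92 and 6.70 CPM in WT libraries (SE, edgeR adjusted p = 0.0446). Stc1-labelled libraries were also below WT, at 2.38 and 2.77 CPM, and Pygo1-labelled libraries above it, at 14.4 and 31.7 CPM. Neither was called against WT. Postn was higher with the Pygo1 than the Rlim label (3.90 ± 0.39, edgeR adjusted p = 0.0149). It was lower with the Stc1 than the Pygo1 label (-3.16 ± 0.375, edgeR adjusted p = 0.0163). Timp1, a metalloproteinase inhibitor, fell by 0.95 ± 0.16, at 29.3 and 31.0 CPM in Rlim-labelled and 54.3 and 62.3 CPM in WT libraries (SE, edgeR adjusted p = 0.0464). It was also below WT, though not called, in Stc1-labelled (41.5 and 47.0 CPM) and Pygo1-labelled libraries (39.3 and 30.6 CPM). Timp1 lies on chromosome X, where the median log2 change against WT was -0.21, -0.47 and -0.48 for Stc1, Pygo1 and Rlim. The part of the chromosome in the Timp1 values was not tested. Acta2, a smooth muscle marker as well as a TGF-beta target, was at 174 and 443 CPM in Stc1-labelled, 178 and 525 CPM in Pygo1-labelled, 281 and 292 CPM in Rlim-labelled and 72.6 and 81.4 CPM in WT libraries and was not called. Another smooth muscle marker, Myh11, stayed at or under 0.466 CPM, and 4 such markers summed to 185.8 to 470.2, 220.9 to 575.8 and 305.2 to 317.1 CPM in the Stc1-, Pygo1- and Rlim-labelled libraries and 99.49 to 115.1 CPM in WT. Their part in the target gene values was not tested.

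The reads assigned to a parental genome gave values for each genome, but not every member matched its surroundings. Smad6, on chromosome 9, had genome 1 shares of 57.6 to 68.4%, where its 10 nearest tested neighbours had medians of 99.2 to 99.99%. Acvr1, on chromosome 2, had shares of 31.7% and 30.8% in WT, where its neighbours had medians of 5.34% and 6.57%. Why these shares differ from those of their neighbours was not tested. Which parent is genome 1 is not given in the labels. Shares of genome 1 were tested in edgeR over 12476 genes with at least 20 genome reads, 34 members among them; Bmp2, Grem1 and Id4 did not pass. A changed share was called in 2 members for Stc1 (Id1 and Smad3), where 5.54% of all genes were called, in 12 for Pygo1, where 20% were, and in 4 for Rlim (Bmp7, Acvr1, Id1 and Smad3), where 11.9% were. Without WT replicate 1 these counts were 1, 4 and 0, without WT replicate 2 they were 1, 3 and 0, and without either Rlim-labelled replicate they were 1, 6 and 0. Without either Stc1-labelled replicate the count for Stc1 was 1. Intervals are 95% Wilson intervals and cover counting error only.

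Id1 lies on chromosome 2 at 152736251 to 152737410, plus strand. Genome 1 gave 1 of 1514 and 1 of 1203 Id1 reads in Stc1-labelled and 1 of 1374 and 1 of 1695 in Pygo1-labelled libraries, or 0.0661%, 0.0831%, 0.0728% and 0.0590%, with upper bounds of 0.373%, 0.469%, 0.411% and 0.333%. The share was 17.9% (16.4 to 19.6) and 17.3% (15.9 to 18.9) in Rlim-labelled libraries and 4.07% (2.94 to 5.60) and 4.73% (3.57 to 6.25) in WT. The Stc1 and Pygo1 labels were below WT and the Rlim label above it, with edgeR adjusted p = 0.000935, 5.36e-05 and 0.00456. The median share over 955 chromosome 2 genes moved the same way, at 1.35% and 1.36% for Stc1, 1.61% and 1.30% for Pygo1, 23.6% and 23.4% for Rlim and 6.86% and 7.06% in WT. Genome 2 reads of Id1 were at 20.96 and 16.0003 CPM in Stc1-labelled and 17.3 and 23.3 CPM in Pygo1-labelled libraries. They were at 24.8 and 25.7 CPM in Rlim-labelled and 10.8 and 11.6 CPM in WT libraries, so genome 2 reads were above WT in every labelled library. Genome 1 reads were also above WT with the Rlim label, at 5.43 and 5.38 CPM against 0.456 and 0.576 CPM. With the Stc1 and Pygo1 labels they were below WT, at 0.0126 to 0.0139 CPM.

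Bmp7 and Acvr1, on the same chromosome, had shares of 20.4% and 19.7% and of 40.5% and 44.0% in Rlim-labelled libraries, against 12.4% and 13.9% and 31.7% and 30.8% in WT (edgeR adjusted p = 0.0272 and 0.0424). Smad9 and Skil, both on chromosome 3, turned nearly to genome 1 in the Pygo1-labelled libraries. The Smad9 share was 94.6% (91.6 to 96.6) and 93.8% (90.9 to 95.8) there, against 57.8% (48.4 to 66.6) and 54.8% (46.4 to 63.0) in WT (edgeR adjusted p = 0.000245). Skil was at 99.9% and 99.8%, against 63.2% and 62.5% in WT (edgeR adjusted p = 9.01e-05). The chromosome 3 median was 99.8% in both Pygo1-labelled libraries, against 79.8% and 79.4% in WT. Genome 2 reads of Smad9 were at 0.214 and 0.317 CPM with the Pygo1 label and 0.599 and 0.764 CPM in WT. Genome 1 reads were at 3.78 and 4.79 CPM with the Pygo1 label and 0.821 and 0.927 CPM in WT. In the Stc1- and Rlim-labelled libraries both genomes of Smad9 were above WT, at 3.25 to 3.91 CPM for genome 1 and 1.90 to 2.06 CPM for genome 2.

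Ltbp2 was higher than in WT from both genomes. Genome 1 reads were at 10.9 and 13.1 CPM in Stc1-labelled, 52.8 and 47.9 CPM in Pygo1-labelled, 17.4 and 17.4 CPM in Rlim-labelled and 1.76 and 1.24 CPM in WT libraries. Genome 2 reads were at 52.1 and 76.3 CPM, 88.2 and 101.8 CPM and 101.7 and 101.1 CPM in the same labels, and 5.51 and 6.29 CPM in WT. The genome 1 share was 37.5% and 32.0% in Pygo1-labelled and 24.2% and 16.5% in WT libraries (edgeR adjusted p = 0.0472), while the median share over chromosome 12 was 51.7% and 51.5% there and 51.2% and 51.9% in WT. Smad3, on chromosome 9, was nearly all genome 1 in every library, at 99.9% or above in all labelled libraries and 99.4% and 99.1% in WT. The chromosome 9 median lay between 99.87% and 99.93% in the labelled libraries and at 98.64% and 98.67% in WT, so Smad3 moved with its chromosome. Of the 12 members called for Pygo1, the others were Bambi, Smad1, Smad5, Ltbp1, Ltbp3, Tgfbr2 and Eng. The Ltbp1 share was 18.6% and 11.3% in Pygo1-labelled and 33.1% and 31.5% in WT libraries (edgeR adjusted p = 0.0392), and the median over its 10 nearest tested neighbours was 38.4% and 26.7% and, in WT, 46.5% and 46.5%. Every Nog read with a genome came from genome 2 in all 8 libraries, with 0 genome 1 reads among 313 in the Pygo1-labelled pair, which allows a share of up to 0.958%. That limit is for pooled reads and is not a Wilson bound, which was 2.10% and 2.79% in the Pygo1-labelled libraries.

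**Figure D4:**
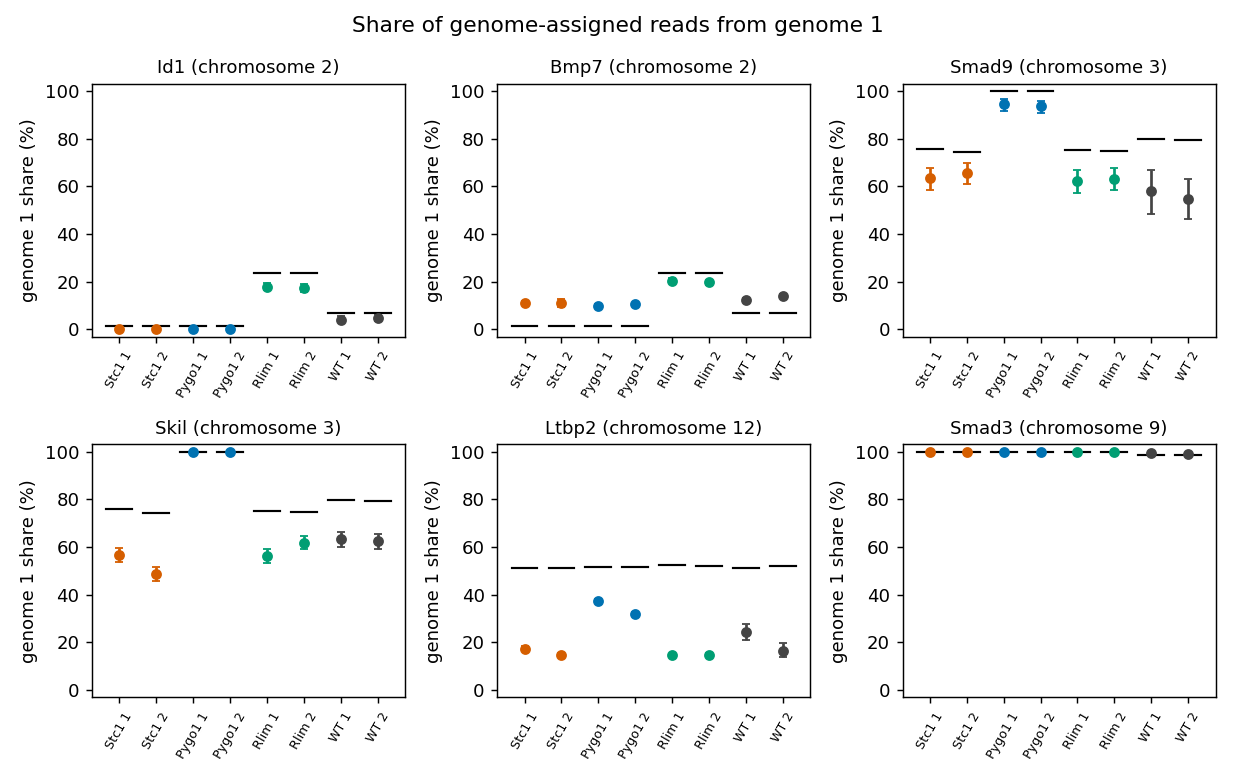
Share of genome-assigned reads from genome 1 in percent (y axis) for 6 members in each library (x axis); points carry 95% Wilson intervals and black bars are the median over the member's chromosome. Id1 follows the chromosome 2 bar, Smad9 and Skil go with the chromosome 3 bar in the Pygo1-labelled libraries, and Ltbp2 differs between labels while its chromosome bar does not.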

How the data were processed

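RNA was extracted with Trizol and prepared with a TruSeq RNA kit, per the labels' protocols. HISAT2 2.0.5, Cufflinks, featureCounts and the build mm10 are named in the submitters' processing notes, with no role or order. The authors deposited unnormalized counts for each Ensembl gene, in 3 measures per library: all reads, genome 1 reads and genome 2 reads. The annotation version, strand setting, multi-mapping rule and genome-splitting tool are not given in the sources used here.

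Symbols, exon lengths and coordinates came from GENCODE M21 on GRCm38, which matched 49411 of 49670 genes. Exons of 11 members overlap another gene (Bmp4, Bmpr1a, Smad5, Id4, Tgfb2, Tgfb3, Ltbp2, Ltbp3, Tgfbr3, Eng and Smurf2), and their counts are uncertain. A quasi-likelihood fit in edgeR 4.0.16, run in R 4.3.3, took 1 mean per group over all 8 libraries after TMM scaling and the tool's default filter on low counts; the biological coefficient of variation was 24.6%. The fold of a label is over WT. Each SE is the size of the log2 change over the square root of the quasi-likelihood F statistic. It rests on the spread shared by all groups and is not the spread of a label's own pair. CPM uses the TMM factors, and TPM the summed exon length. Genome shares were fitted with a term per library and a genome term per group, leaving out 329 genes whose genome reads exceeded all reads. Both models were tested on simulated data, with results not given here.

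Alternatives were RLE scaling, no filter, DESeq2 1.42.0, the compared groups alone, a replicate block, summed genome counts, each chromosome scaled to WT, other read minimums, and each library left out. Genome shares between labels were compared after the data were seen. Members and lists were chosen with earlier results of these data known. All members were accounted for by role; those called in any comparison have every library's value, and up to 4 called genes of each other list were named. Figures were drawn with matplotlib 3.10.9.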

Additional observations from a re-analysis of the deposited data

Results flagged for a closer look

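Some members differed between knockout labels. Id2 was lower in Pygo1- than in Rlim-labelled libraries, by a log2 change of -0.85, and higher in Stc1- than in Pygo1-labelled libraries, by 0.87. Ltbp4 was lower in Pygo1- than in Rlim-labelled libraries, by a log2 change of -1.19.

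Genome 1 shares that lay on opposite sides of WT in the libraries of a pair of labels, and differed between them in edgeR at an adjusted p under 0.05, are given as differences in percentage points over pooled reads. For Stc1 minus Rlim they were -8.97 for Bmp7, -13.8 for Acvr1, -17.5 for Id1 and -19.0 for Eng. For Pygo1 minus Rlim they were -9.86 for Bmp7, -15.5 for Acvr1, -17.6 for Id1 and -19.0 for Eng, all 4 on chromosome 2. For Pygo1 minus Rlim they were 17.6 for Smad1, 20.1 for Ltbp2, 8.88 for Ltbp3 and 40.8 for Skil. Chromosome medians with the Pygo1 and Rlim labels were 69.8 and 70.5% against 52.5 and 52.0% on chromosome 8 (Smad1). They were 91.7 and 99.6% against 76.7 and 76.7% on chromosome 19 (Ltbp3), and 99.8 and 99.8% against 75.2 and 74.9% on chromosome 3 (Skil). On chromosome 12 (Ltbp2) they were 51.7 and 51.5% against 52.5 and 52.0%. Ltbp3 with the Rlim label lay just under WT, at 79.86 and 79.89% against 79.91 and 80.38%. For Stc1 minus Pygo1 the Skil difference was -47.5, and the chromosome 3 median was 75.8 and 74.4% with the Stc1 label. Of all genes, 12.4% (Stc1 against Rlim), 15.9% (Pygo1 against Rlim) and 10.8% (Stc1 against Pygo1) had a called share. Eng had 0 genome 1 reads among 148 in the Stc1-labelled and 292 in the Pygo1-labelled pair, which allows shares of up to 2.03% and 1.03%, and 4 among 101 in WT. These limits are for pooled reads and are not Wilson bounds.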

How the results depend on the processing

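Counts of called members are given for Stc1, Pygo1 and Rlim against WT, then for Stc1 against Rlim, Pygo1 against Rlim and Stc1 against Pygo1. They were 4, 4, 5, 0, 2 and 1. DESeq2 called 10, 12, 11, 4, 5 and 5. With no filter, Pygo1 had 7, Rlim 8, Stc1 against Rlim 1 and Stc1 against Pygo1 2. With the compared groups alone, Stc1 had 0, Pygo1 9, Rlim 24 and Stc1 against Pygo1 0. Summed genome counts gave 0 for Pygo1 against Rlim. Leaving out 1 library gave 0 to 20, 1 to 15, 0 to 16, 0 to 16, 0 to 10 and 0 to 12. For changed genome shares, counted as 2, 12 and 4 against WT, it gave 1 to 3, 3 to 12 and 0 to 5. Over all genes, leaving out 1 library moved the calls against WT to between 3 and 4484 for Stc1, 8 and 3678 for Pygo1 and 3 and 3036 for Rlim. Where a group keeps 1 library, that library is assumed to vary like the other groups. The cause of these moves was not tested.

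Same-numbered libraries did not pair: correlations of their replicate differences ran from -0.15 to 0.04. A replicate block called 1, 2, 1, 0, 0 and 0 members, and 1, 7 and 2 changed shares.

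No called member reversed its direction in any alternative. Scaling each chromosome to WT moved Id1 for Pygo1 to an edgeR adjusted p = 0.0503. Bmp2 had at most 4 reads in a library and Grem1 at most 28, so that counting error weighs most on these members.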
